A study of Oncorhynchus mykiss with 60 samples.

Results

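Section E is the vegetal end of the rainbow trout egg, the last of 5 slices taken from the animal pole (A) to the vegetal pole (E) of eggs and embryos for RNA sequencing. Its transcripts at 1 hour post fertilization (1 hpf) were compared with those at 0 hpf. The 5 libraries were chosen by their labels, as those of section E at these stages, and come from a table of 55 libraries. They are 1 hpf E replicates 1 and 3, and 0 hpf E replicates 1, 2 and 3; replicate 2 of 1 hpf was not analysed here. The labels name no treatment or mutation in either group. The 1 hpf labels speak of 1 cell in one place and of early cleavage in another, and the 0 hpf labels name both a non-fertilized and a freshly fertilized egg, so the groups are called by their times. Per the labels' protocols, ribosomal RNA was depleted and libraries were made from an equal mass of total RNA, so each value is a share of the RNA counted in its section, and less of a transcript cannot be told apart from more of the others.

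The vegetal pole of a fish egg lies under the large yolk mass and stores maternal RNAs laid down in the ovary, among them transcripts needed to set up the dorsal side and, in several species, to form the germ line. In zebrafish some of these RNAs reach the vegetal cortex through the Balbiani body of the oocyte and leave it along microtubules after fertilization. The embryo's own genome is silent in the first hours, so levels of RNA in this period reflect what the egg was given and how it is kept, processed or moved.

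Library totals were 3.23 and 6.66 M counts in the 1 hpf E libraries and 3.66, 4.64 and 5.49 M in the 0 hpf E libraries. The level that 3 counts stand for was taken as the floor for a gene without a count. In counts per library total of 1e6 (CPM), it was 0.930 and 0.450 CPM at 1 hpf. At 0 hpf it was 0.821, 0.646 and 0.546 CPM. These floors use library totals alone. The CPM levels of genes below were also scaled by TMM factors that correct for RNA composition. Floors, and the intervals of ratios of counts, cover counting error only, whereas intervals of log2 changes come from the fit and include the spread between replicates. Replicates differed beyond counting noise, with chi-square divided by its degrees of freedom at 12.24 for the 1 hpf pair and 7.37 to 15.22 for the 0 hpf pairs. Replicate 2 of 0 hpf stood apart, with correlations of log2 CPM across genes of 0.901 and 0.902 with the others, which had 0.967 with each other. The samples are labelled as biological replicates, with no parents or clutches named, so the p-values speak only of the spread among them, part of which may be technical. Time after fertilization and the source of the eggs cannot be told apart in this design.

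The section carried its vegetal label in the levels of hwa, trim36 and slbp2. Levels in section A of their copies and of other vegetal genes are not given here. The dorsal determinant hwa averaged 177 CPM in E and 1.89 CPM in A at 1 hpf, and 111 CPM in E and 1.51 CPM in A at 0 hpf. The ubiquitin ligase trim36 (LOC110525254) stood at 2740 against 30.8 CPM at 1 hpf and at 2484 against 40.2 CPM at 0 hpf for the same sections. The histone mRNA binder slbp2 stood at 1852 against 12.6 CPM at 1 hpf and at 1256 against 32.9 CPM at 0 hpf. These levels were scaled over the 55 libraries, whereas levels given per library below were scaled over the 11 section E libraries.

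Between the stages few genes of section E differed. By edgeR's quasi-likelihood test with Benjamini-Hochberg adjustment at 0.05, 107 of 20810 genes were higher at 1 hpf (0.514%) and 67 were lower (0.322%). With the spread taken from the 5 compared libraries alone, 18 were called higher and 17 lower. The median change over all genes was -0.03 on the log2 scale, with quartiles of -0.38 and 0.27. The 2 groups did not overlap for any of the 174 genes, which the choice of these genes by the test nearly fixes. They did not overlap for 29.9% of all genes tested. This separation also nearly fixes the direction of change of the 174 genes when a library is left out. Of the higher genes, 60 changed by over 2 on the log2 scale, and of the lower genes 32 did. Their medians were 2.28 and -1.94, also with genes of 0 to 3 counts in 1 group set at their counting ratio or bound. Single libraries weighed on the counts, which were 31 and 8 without 1 hpf replicate 1, 36 and 9 without 1 hpf replicate 3, 41 and 19 without 0 hpf replicate 1, 367 and 217 without 0 hpf replicate 2, and 37 and 20 without 0 hpf replicate 3. Of the 174 genes, 38, 43, 60, 172 and 55 still passed in these 5 fits, and all kept their direction. The plot of change by level shows called genes mainly at low and middle levels, though limd2 was called at a high level. The 10 most abundant genes of the section had changes from -0.55 (mast3a) to 0.53 (slbp2).

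**Figure D1:**
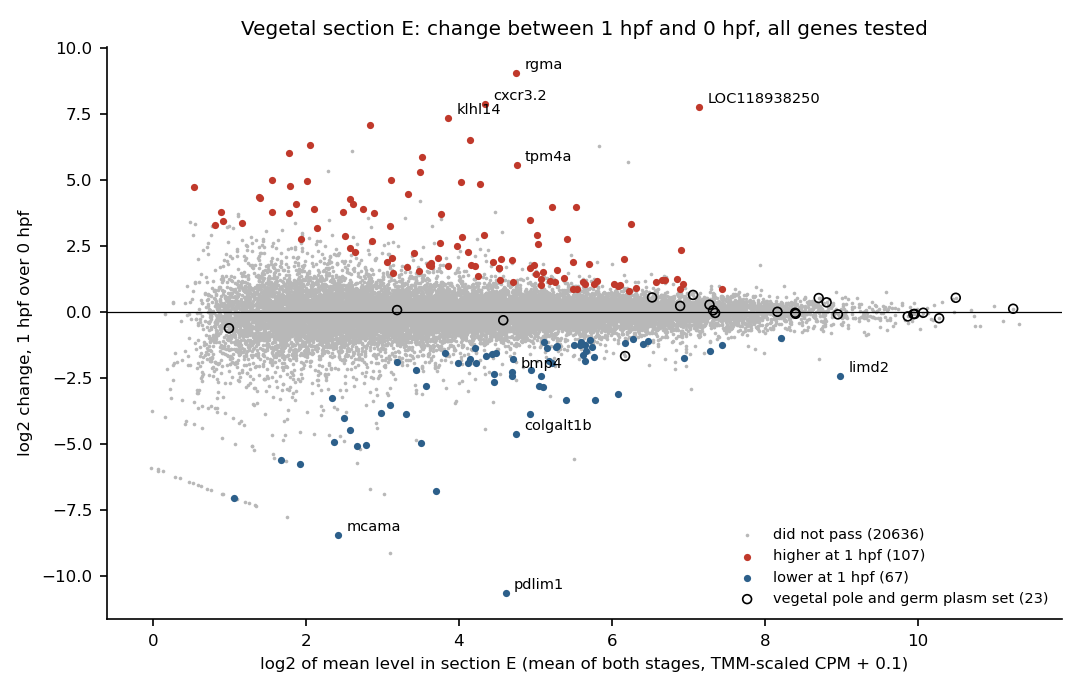
Log2 change in section E, 1 hpf over 0 hpf (vertical), against the log2 mean level over both stages (horizontal, TMM-scaled CPM + 0.1), 1 point per gene tested. The 107 genes higher at 1 hpf (0.514% of those tested) are red and the 67 lower (0.322%) are blue. Open circles mark 23 vegetal pole and germ plasm genes, none of which passed.

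The largest rises were of genes that were almost without counts in section E at 0 hpf. The gene rgma, a repulsive guidance molecule that also acts as a co-receptor for BMP signals, stood at 62.3 and 44.8 CPM at 1 hpf, against 0, 0 and 0.174 CPM at 0 hpf. Its 516 counts against 1 gave a ratio of 717 (95% exact interval 128 to 28394, adjusted p = 4.99e-06). The chemokine receptor gene cxcr3.2 stood at 25.7 and 54.5 CPM at 1 hpf, against 0.279, 0.208 and 0 CPM at 0 hpf (ratio 317, 87.3 to 2626). Genes were named here only where the 1 hpf and 0 hpf libraries did not overlap, so that separation is part of the choice. The kelch gene klhl14 stood at 40.7 and 16.6 CPM at 1 hpf, against 0.279, 0.208 and 0 CPM at 0 hpf (ratio 175, 47.8 to 1449). The cholesteryl ester transfer gene cetp stood at 22.2 and 5.77 CPM at 1 hpf, against 0, 0 and 0.174 CPM at 0 hpf (ratio 160, 28.1 to 6370). These 2 genes differed severalfold between the 1 hpf libraries themselves.

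Metabolic, adhesion and contractile genes followed. The ATP citrate lyase gene aclya/aclyb, whose enzyme supplies acetyl-CoA for lipid synthesis, had 18.1 and 51.4 CPM at 1 hpf, against 0, 1.04 and 0 CPM at 0 hpf (log2 6.52, SE 0.93, adjusted p = 0.00824). The neural adhesion gene cntn4 had 8.48 and 7.70 CPM at 1 hpf, against 0, 0 and 0.174 CPM at 0 hpf (ratio 113, 19.7 to 4503). The slow muscle myosin gene smyhc1 had 6.73 and 6.51 CPM at 1 hpf, against 0, 0.208 and 0 CPM at 0 hpf (ratio 93.2, 16.2 to 3734). The tropomyosin gene tpm4a, whose protein binds along actin filaments, had 58.2 and 47.2 CPM at 1 hpf, against 1.96, 0 and 1.39 CPM at 0 hpf (log2 5.58, SE 0.49, adjusted p = 0.000196). The TRIM gene btr25 (log2 5.85, SE 0.72), the kainate receptor gene grik5 (5.30, SE 0.68) and slc25a24 (4.99, SE 0.44), a mitochondrial carrier of ATP-Mg and phosphate, rose as well. The uncharacterized gene si:ch211-126j24.1 had 76 counts at 1 hpf against 3 at 0 hpf (ratio 35.2, 11.6 to 175). A protein-coding gene without a name, LOC118938250, was picked out after its values were seen. It had 281 and 282 CPM at 1 hpf, against 1.68, 0.831 and 1.39 CPM at 0 hpf (log2 7.75, SE 0.38, adjusted p = 3.23e-06).

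The largest falls were of genes that 1 hpf section E held at or near 0. The gene pdlim1, which encodes a PDZ and LIM domain protein of the actin cytoskeleton, had no count in either 1 hpf library, against 41.3, 56.7 and 47.9 CPM at 0 hpf. It was at least 167-fold lower at 1 hpf, with 3 counts over the group as the floor (adjusted p = 0.00178). The cell adhesion gene mcama also had no count at 1 hpf, against 9.77, 12.7 and 9.05 CPM at 0 hpf, and was at least 35.5-fold lower. The kinesin gene kif1ab had 0.293 and 0 CPM at 1 hpf, against 7.54, 10.8 and 3.48 CPM at 0 hpf (ratio of 0 hpf to 1 hpf 71.2, 12.5 to 2840). For the falls too, separation of the 1 hpf and 0 hpf libraries was a condition for naming a gene here. The potassium channel gene kcnq5b, with a ratio of 0 hpf to 1 hpf of 58.3 (10.2 to 2329), was lost without the filter on low counts.

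Enzymes, a corepressor subunit and synaptic and trafficking genes were among the other falls. The collagen galactosyltransferase gene colgalt1b had 1.17 and 2.66 CPM at 1 hpf, against 55.3, 51.9 and 46.8 CPM at 0 hpf (log2 -4.63, SE 0.38, adjusted p = 0.000144). It stayed detectable at 1 hpf and was even across replicates at 0 hpf. The gene gps2, a subunit of the N-CoR corepressor complex, had 0.878 and 1.48 CPM at 1 hpf, against 19.3, 19.7 and 16.5 CPM at 0 hpf (-3.88, SE 0.48, adjusted p = 0.00335). The synapsin gene syn1 (-4.49, SE 0.83), umodl1 (-4.99, SE 0.88), the sorting nexin gene snx24 (-3.82, SE 0.57) and the homocysteine methyltransferase gene bhmt (-3.54, SE 0.64) fell too. The hair-cell gene loxhd1b had 3 counts at 1 hpf against 130 at 0 hpf (ratio of 0 hpf to 1 hpf 31.2, 10.4 to 153). Of the 12 largest rises and 12 largest falls, kif1ab, kcnq5b, syn1, mcama, umodl1, loxhd1b, bhmt, cetp and smyhc1 each failed to pass in at least 3 of the 5 fits that left out 1 library. The call of aclya/aclyb was lost without 0 hpf replicate 3 or 1 hpf replicate 3, that of snx24 without either 1 hpf replicate and that of gps2 without 1 hpf replicate 1, and the other 12 passed in all 5 fits.

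**Figure D2:**
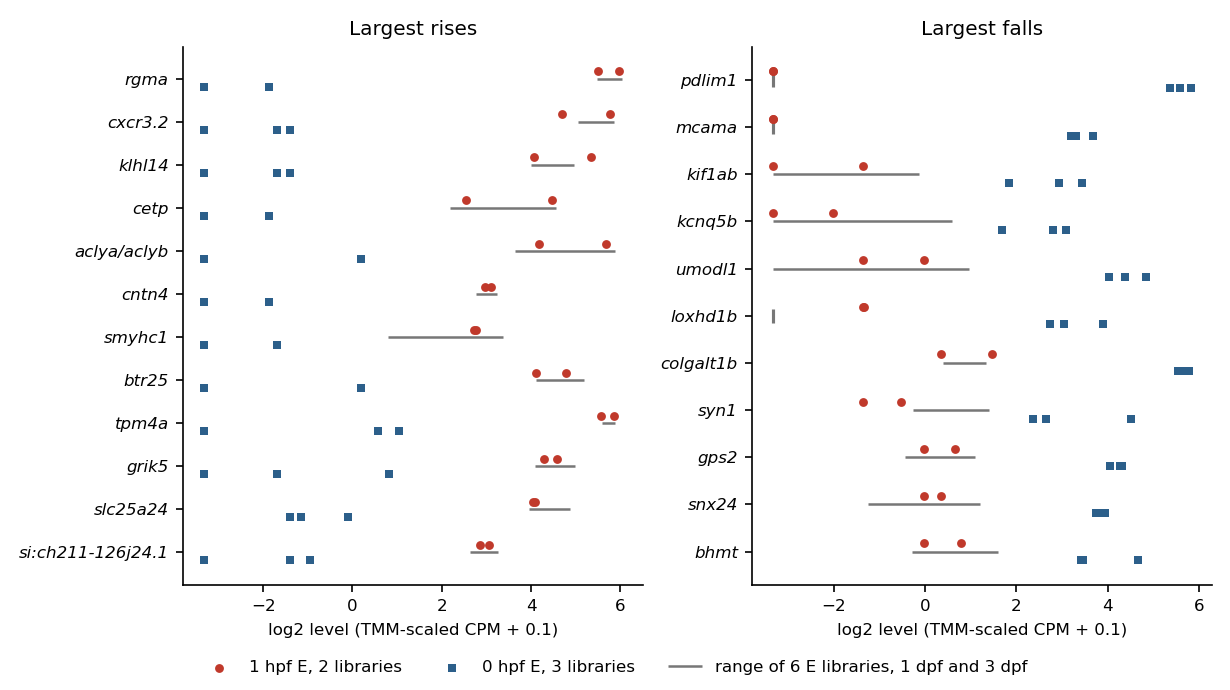
Log2 level (TMM-scaled CPM + 0.1) of the 12 largest rises and 11 of the 12 largest falls with a name in section E, with 1 hpf libraries as red circles, 0 hpf libraries as blue squares and the range of 6 section E libraries of 1 dpf and 3 dpf in grey. Genes were chosen so that red and blue do not overlap, and the grey ranges lie by the 1 hpf points, as for pdlim1 at 0 CPM.

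The later section E libraries give these levels a longer view. In the 6 libraries of 1 and 3 days post fertilization (dpf), rgma ranged from 44.2 to 65.6 CPM, cxcr3.2 from 32.9 to 57.8 CPM and LOC118938250 from 240 to 509 CPM. Neither pdlim1 nor mcama had a count in any of the 6, and colgalt1b ranged from 1.22 to 2.44 CPM. A comparison of these libraries with 0 hpf would share its 3 libraries with the one above, so the levels are given alone. Over sections A to D, rgma ranged from 28.0 to 66.4 CPM at 1 hpf and from 0 to 0.540 CPM at 0 hpf. Over the same sections pdlim1 was at 0 CPM throughout at 1 hpf and at 18 to 46.5 CPM at 0 hpf, where section E had 44.2 to 61.0 CPM on the same scale. The gene colgalt1b averaged 24.4 CPM in A and 54.8 CPM in E at 0 hpf, so its level at 0 hpf was not even along the axis.

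Most genes called in section E changed in other sections as well. Of the 107 higher genes, 62 passed in A, 64 in B, 95 in C and 94 in D. Of the 67 lower genes 27, 20, 36 and 38 did. Each section had its own comparison of 1 hpf with 0 hpf, and passing was counted there in either direction. Those comparisons called 1.18%, 0.899%, 13.5% and 3.52% of all genes in A, B, C and D in either direction. In all, 70 of the 174 genes passed in each of the other 4 sections and 27 in none of them, of which 24 were lower genes. The 107 genes had medians of 1.98, 2.06, 2.15 and 2.29 in A, B, C and D, and the 67 genes had medians of -1.60, -1.53, -1.33 and -1.52. The genes were selected in E, which favours a larger median there. In E the medians were 2.28 and -1.94, so that of the higher genes did not exceed the one in D. The sections of a replicate come from the same sample, so they are not independent replicates of the change.

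**Figure D3:**
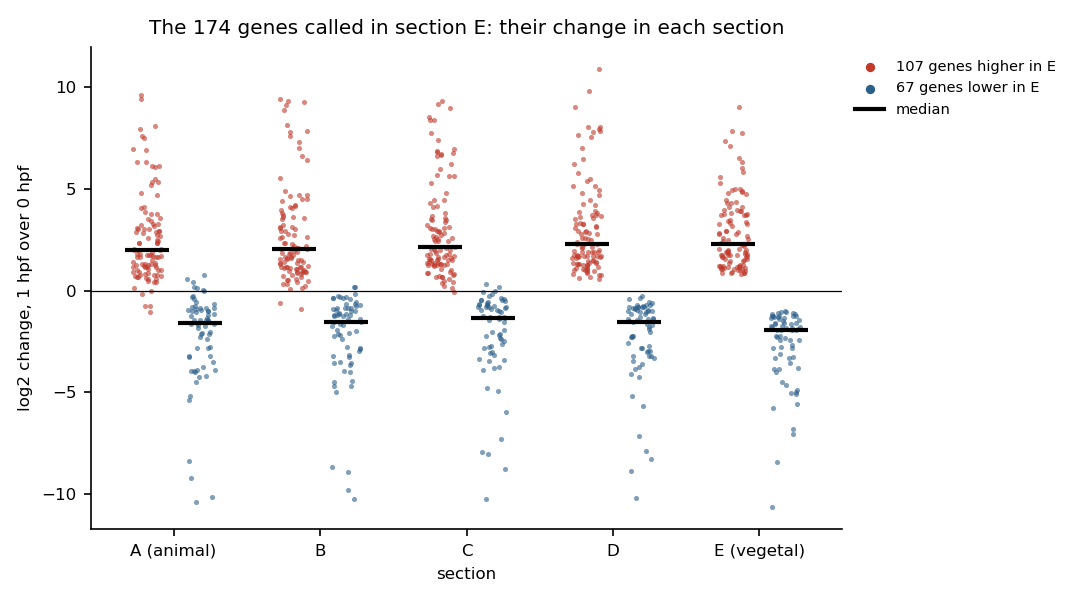
Log2 change of 1 hpf over 0 hpf in each section (horizontal axis, A animal to E vegetal) for the 174 genes called in section E, 1 point per gene, with medians as black bars. The genes higher in E (red, 107) and lower in E (blue, 67) have medians of the same sign in A to D.

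The best known vegetal RNAs did not pass the test. As 0.514% of all genes passed as higher and 0.322% as lower, this does not set them apart. The gene hwa, which encodes the membrane protein Huluwa that zebrafish need for the dorsal organizer, had 178 and 147 CPM at 1 hpf, against 122, 82.5 and 108 CPM at 0 hpf. The groups did not overlap, as for 29.9% of all genes, and the change of 0.64 (95% interval 0.05 to 1.24) had an adjusted p of 0.329. Its copy LOC110509564 was at 0.06 (-0.92 to 1.04). The gene slbp2 had 1795 and 1615 CPM at 1 hpf, against 1233, 1140 and 1160 CPM at 0 hpf (0.53, -0.03 to 1.10, adjusted p = 0.394). Both hwa and slbp2 were thus higher in each 1 hpf library without passing over all genes. The gene trim36, whose vegetal transcript frogs need for the dorsal axis, had 2495 and 2551 CPM at 1 hpf, against 2648, 2634 and 1694 CPM at 0 hpf (LOC110525254, 0.12, -0.56 to 0.79). Its copy LOC110535019 was at -0.08 (-0.44 to 0.28). The grip2a/grip2b gene LOC110492486 (in zebrafish, grip2a helps to carry dorsal determinants from the vegetal pole) had 1279 and 993 CPM at 1 hpf, against 1587, 1503 and 941 CPM at 0 hpf (-0.24, -1.02 to 0.54). The grip2b gene was at 0.55 (-0.47 to 1.57). The libraries of both stages overlapped for trim36 LOC110525254 and for the 2 grip2 genes.

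Germ plasm and Balbiani body genes did not pass either, beside the same 0.514% higher and 0.322% lower of all genes. The germ-cell RNA-binding gene dazl had 342 and 317 CPM at 1 hpf, against 369, 293 and 378 CPM at 0 hpf (-0.07, -0.49 to 0.34). Its copy LOC110487980 had 13.8 and 53.9 CPM at 1 hpf, against 75.4, 173 and 81.6 CPM at 0 hpf (-1.68, -3.44 to 0.09, adjusted p = 0.394). This copy was lower in both 1 hpf libraries, as were 15.4% of all genes tested, and its levels spread widely within each stage. The Balbiani body organizer buc had 958 and 1163 CPM at 1 hpf, against 1078, 1013 and 1165 CPM at 0 hpf (-0.03, -0.49 to 0.43), and its copies LOC110489830 and LOC110535186 were at 0.22 (-0.25 to 0.70) and 0.27 (-0.29 to 0.83). The Vasa helicase gene ddx4 was at 0.00 (-0.44 to 0.44). The RNA-binding celf1 copies were at 0.36 (-0.09 to 0.81) and -0.10 (-0.49 to 0.30). The sybu copies, for an adaptor of kinesin-based transport, were at -0.08 (-0.52 to 0.35) and -0.17 (-0.90 to 0.55). The phosphoinositide phosphatase genes pip4p2 were at 0.07 (-0.67 to 0.80) and -0.04 (-1.25 to 1.17). The 4 genes of the nuclear import receptor kpna3 ranged from -0.62 to 0.52. Intervals reach past a change of 1 on the log2 scale for both hwa genes, slbp2, both grip2 genes and 3 kpna3 genes. Those of pip4p2 LOC110504292 and dazl LOC110487980 do so too. Apart from that of hwa itself, these intervals also include 0, so a change of that size cannot be told from none. For hwa a change of that size is not excluded either.

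**Figure D4:**
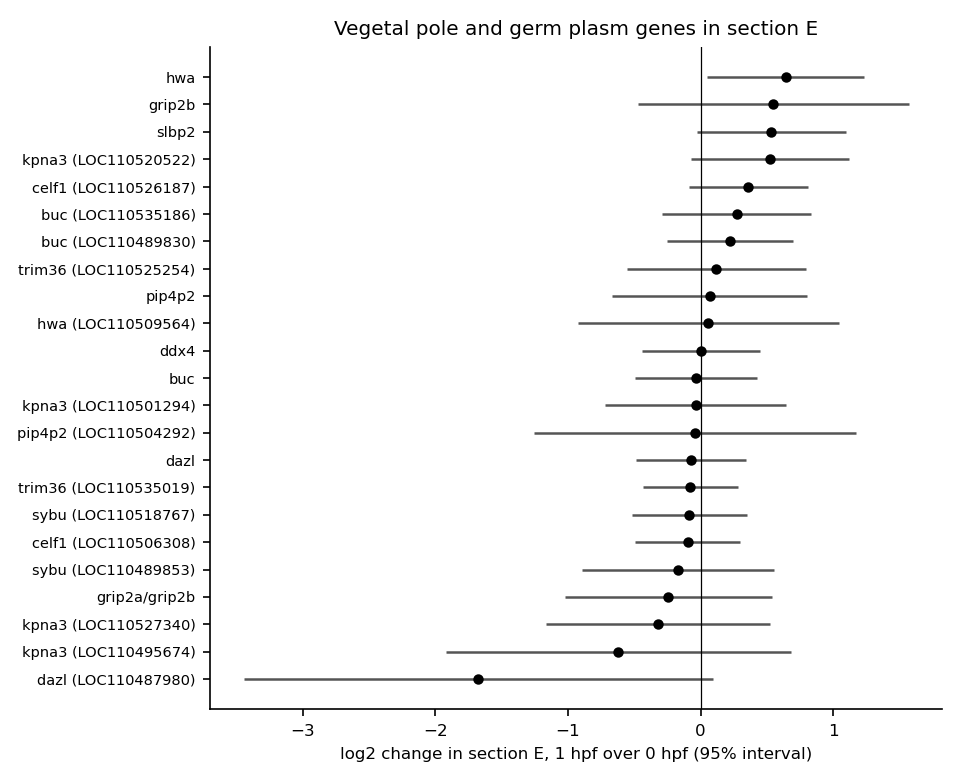
Log2 change in section E, 1 hpf over 0 hpf, with 95% intervals (horizontal) for 23 vegetal pole and germ plasm genes and their copies (vertical). Every interval but that of hwa (0.05 to 1.24) includes 0. None passed over all genes tested, of which 0.514% passed as higher and 0.322% as lower.

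None of the most abundant genes of section E passed. With 0.514% of all genes called higher and 0.322% lower, this does not set them apart. Apart from trim36 and slbp2, the 10 genes with the highest mean CPM were trip6, a LIM protein of focal adhesions, the nonmuscle myosin gene myh9a, the arhgap10 genes (2 copies), which encode a GTPase-activating protein, the kinase gene mast3a, rundc3b, the RNA-binding gene raver1 and si:ch73-15b2.5. Their changes ran from -0.55 for mast3a to 0.24 for arhgap10 LOC110534522. The gene trip6 showed how far replicates differed, with 1355 and 2919 CPM at 1 hpf, against 3385, 3522 and 1960 CPM at 0 hpf. The interval of rundc3b (-0.54, -1.06 to -0.03, adjusted p = 0.34) alone among them excluded 0. CPM is not scaled to gene length, so the ranking by level favours long transcripts.

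Medians of the gene groups in this paragraph lay between the quartiles of all genes, -0.38 and 0.27. Germ plasm genes had a median of -0.10 over 41 genes tested, vegetal and dorsal determinants -0.08 over 55, oocyte and egg genes -0.01 over 44 and cell cycle genes 0.13 over 127, beside -0.03 for all genes. None of these 4 groups had a gene called by edgeR, beside 0.514% higher and 0.322% lower of all genes. Over all genes, an unadjusted p under 0.05 was reached by 6.89% as higher and 6.71% as lower, and DESeq2 called 1.64% higher and 1.26% lower. At an unadjusted p under 0.05 the 4 groups had 1 higher and 5 lower, 1 and 5, 2 and 6, and 11 and 5 genes, and DESeq2 called 0 and 0, 0 and 1, 0 and 0, and 3 and 2. Ribosomal protein genes were lowest among the large groups, with a median of -0.29 over 151 genes (quartiles -0.62 and 0.03), none of them called by edgeR, 5 higher and 8 lower at an unadjusted p under 0.05, and 4 higher and 2 lower by DESeq2. Groups with no gene called by edgeR also included mitochondrial ribosomal proteins (median -0.06 over 65), cytosolic chaperones (0.04 over 68), endoplasmic reticulum and secretion genes (-0.12 over 137), translation factors (-0.05 over 115), mRNA clearance genes (-0.04 over 148), histones and their mRNA binders (0.16 over 26) and genome activation factors (-0.10 over 128). Unadjusted p-values under 0.05 numbered 4 higher and 3 lower, 5 and 1, 5 and 11, 6 and 5, 6 and 10, 3 and 2, and 7 and 3 in these 7 groups, to be read beside the same 6.89% and 6.71%, and DESeq2 called 0 and 1, 2 and 0, 1 and 2, 0 and 0, 0 and 1, 2 and 0, and 0 and 0.

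A few group members passed singly, beside 0.514% higher and 0.322% lower over all genes. Of 79 egg activation and cortex genes 2 were lower, with a group median of -0.05. The SNARE gene vamp8, which acts in vesicle fusion, had 106 and 99.5 CPM at 1 hpf, against 256, 210 and 266 CPM at 0 hpf (-1.25, SE 0.24, adjusted p = 0.0387). The other, prkcsh (-1.23, SE 0.23), encodes a subunit of glucosidase II and not a protein kinase C, despite its symbol. Of 160 motor and cytoskeleton genes 3 were lower, namely kif1ab, the Arp2/3 gene actr2b (-1.32, SE 0.24) and the kinesin gene kif1b (-1.64, SE 0.32), named after its values were seen, and the group's median was -0.01. Of 77 oxidative phosphorylation genes only sdha, a subunit of succinate dehydrogenase, was called. It had 15.2 and 15.1 CPM at 1 hpf, against 4.47, 3.53 and 5.74 CPM at 0 hpf (1.71, SE 0.32, adjusted p = 0.0325), while the group's median was -0.10. Of 64 proteasome genes only the lid subunit gene psmd13 was called (1.53, SE 0.28, adjusted p = 0.0313), and the group's median was 0.09. The calls of vamp8, prkcsh, actr2b, kif1b, sdha and psmd13 each held in only 1 of the 5 fits that left out a library, the one without 0 hpf replicate 2.

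Patterning genes of the later embryo were mostly scarce in this maternal RNA, with 22 of 67 tested and a median of -0.27. The signal gene bmp4, a ventral morphogen, had 10.5 and 7.10 CPM at 1 hpf, against 42.2, 40.9 and 45.4 CPM at 0 hpf (-2.30, SE 0.37, adjusted p = 0.0173). The transcription factor gene klf2a had 2.93 and 2.96 CPM at 1 hpf, against 26.3, 13.5 and 22.3 CPM at 0 hpf (-2.80, SE 0.54, adjusted p = 0.0387). Both fell, and both did so in section D too (bmp4 -1.68, adjusted p = 0.0168, and klf2a -2.82, adjusted p = 0.0391). In E both calls held in only 1 of the 5 fits that left out a library, the one without 0 hpf replicate 2.

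Summed levels of markers of other cells overlapped between the stages. The summed level of 25 sperm and testis markers was 371 to 432 CPM at 1 hpf and 388 to 458 CPM at 0 hpf, and that of 23 muscle and skin markers was 1753 to 1802 CPM at 1 hpf and 1756 to 1809 CPM at 0 hpf, with 2 of these at 0 throughout. The 9 liver and yolk precursor markers summed to 181 to 188 CPM at 1 hpf and 174 to 200 CPM at 0 hpf, and 2 blood markers to 1.46 to 2.52 CPM at 1 hpf and 0.208 to 3.83 CPM at 0 hpf. Of 2 follicle cell markers hsd3b7 was called, with 32 counts at 1 hpf and 3 at 0 hpf (ratio 14.8, 4.64 to 75.7), but its call held in only 1 of the 5 fits that left out a library, the one without 0 hpf replicate 2. It is known as an enzyme of bile acid synthesis. The 2 markers summed to 290 to 444 CPM at 1 hpf and 417 to 521 CPM at 0 hpf. The other marker groups had no call by edgeR, beside 0.514% higher and 0.322% lower of all genes. Among them DESeq2 called only 2 lower muscle and skin genes. The unadjusted p was under 0.05 for 1 higher and 3 lower of 18 sperm and testis genes tested. It was so for 0 higher and 5 lower of 17 muscle and skin genes tested. These counts stand beside 6.89% higher and 6.71% lower of all genes. The 17 muscle and skin genes had a median change of -0.43 (quartiles -1.52 and -0.03), beside -0.03 for all genes. The part of these markers in the result was not tested.

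A further test asked which genes changed in section E by more or less than in sections A to D. Its p-values measure the scatter among sections of the same sample, taken as independent. Only 2 such samples at 1 hpf and 3 at 0 hpf stand behind each difference. With a term for each replicate, 189 of 20810 genes (0.908%) had a more positive change in E than the mean of the other sections, and 60 genes (0.288%) a more negative one. These counts rest on single replicates, since they were 6 and 3 without 1 hpf replicate 3, 246 and 24 without 1 hpf replicate 1, 94 and 26 without 0 hpf replicate 1, 241 and 142 without 0 hpf replicate 2, and 7 and 2 without 0 hpf replicate 3. Without the replicate terms 5 and 0 genes passed. Of the 174 genes called in E, 17 differed from the other sections by this test. They were chosen by their change in the same E libraries, which favours a difference here.

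The 189 genes were, by their medians, highest at the animal pole at both stages. Their median levels from A to E were 94.1, 78.7, 37.6, 31.8 and 33.7 CPM at 1 hpf, and 97.0, 88.8, 67.1, 40.1 and 20.6 CPM at 0 hpf. Choosing genes by a more positive change in E favours a low level in E at 0 hpf. In the 1 dpf and 3 dpf libraries, which this test did not use, 96.3% and 89.9% of them were higher in A than in E. Of all genes tested, 48.3% and 47.5% were. The median change of the 189 genes was 0.55 in E, and -0.06, -0.20, -0.92 and -0.42 in A, B, C and D, so the difference lay in a lower level in C and D as much as in a higher level in E. In the comparison of E by itself, which shares its libraries with this test, 7 of the 189 passed. The named genes with the smallest adjusted p included tktb, which encodes transketolase of the pentose phosphate pathway. It had 40.4 and 49.4 CPM in E at 1 hpf, against 25.7, 20.6 and 26.8 CPM at 0 hpf, and its change exceeded that of A to D by 1.34 (SE 0.17, adjusted p = 0.00109). The exportin gene cse1l, which returns importin alpha to the cytoplasm, had 39.2 and 40.1 CPM at 1 hpf, against 26.3, 19.9 and 26.1 CPM at 0 hpf (difference 1.18, SE 0.16). The helicase gene ercc6l, which acts on ultrafine DNA bridges in anaphase, had 44.8 and 56.8 CPM at 1 hpf, against 27.1, 30.1 and 28.0 CPM at 0 hpf (difference 1.33, SE 0.17). All 3 were higher in every 1 hpf library of E than in any 0 hpf one, as were 14.5% of all genes tested. Their choice by a more positive change in E favours this. The change in E by itself did not pass for any of them. Without 1 hpf replicate 3 the difference did not pass for tktb (adjusted p = 0.0668), cse1l (adjusted p = 0.113) or ercc6l (adjusted p = 0.0949).

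The Ral GTPase regulator ralgapa1 had the largest difference of the named genes, with levels that ran in opposite order along the axis. From A to E it averaged 11, 16.7, 34.6, 41.5 and 46.2 CPM at 1 hpf, and 39.6, 34.6, 26, 22.2 and 14.9 CPM at 0 hpf. Its mean was thus higher at 1 hpf in C and D as well as in E, and lower in A and B. The difference was 2.07 (SE 0.22, adjusted p = 0.000143), while the change in E alone was 1.62 (SE 0.38, adjusted p = 0.0813). Without the replicate terms the difference did not pass (adjusted p = 0.111). The gene ralgapa1 was called lower in A (-1.82, adjusted p = 0.00736). Cytosolic chaperones had 10 genes with a more positive change in E and 1 with a more negative one among 68, beside 0.908% and 0.288% of all genes, with a median difference of 0.15 beside 0.01 for all genes. The count over all genes, 189, was 6 without 1 hpf replicate 3 and 7 without 0 hpf replicate 3, so the group's count rests on these libraries too. Among them hsp90bb had 26.3 and 35.8 CPM in E at 1 hpf, against 15.9, 12.1 and 16.4 CPM at 0 hpf (difference 1.61, SE 0.22, adjusted p = 0.00122), and hsp90ab1, picked out after its values were seen, had a difference of 1.33 (adjusted p = 0.00514). Without 1 hpf replicate 3 neither hsp90bb (1.29, adjusted p = 0.0852) nor hsp90ab1 (0.82, adjusted p = 0.284) passed, and without 0 hpf replicate 3 hsp90ab1 did not (adjusted p = 0.152). The receptor adaptor gene ldlrap1a passed this test (1.36, SE 0.18, adjusted p = 0.00111), but it was absent from 1 replicate. It had 0 and 83.5 CPM in E at 1 hpf, against 25.7, 23.9 and 26.3 CPM at 0 hpf, and did not pass without 1 hpf replicate 3 (0.78, adjusted p = 1).

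**Figure D5:**
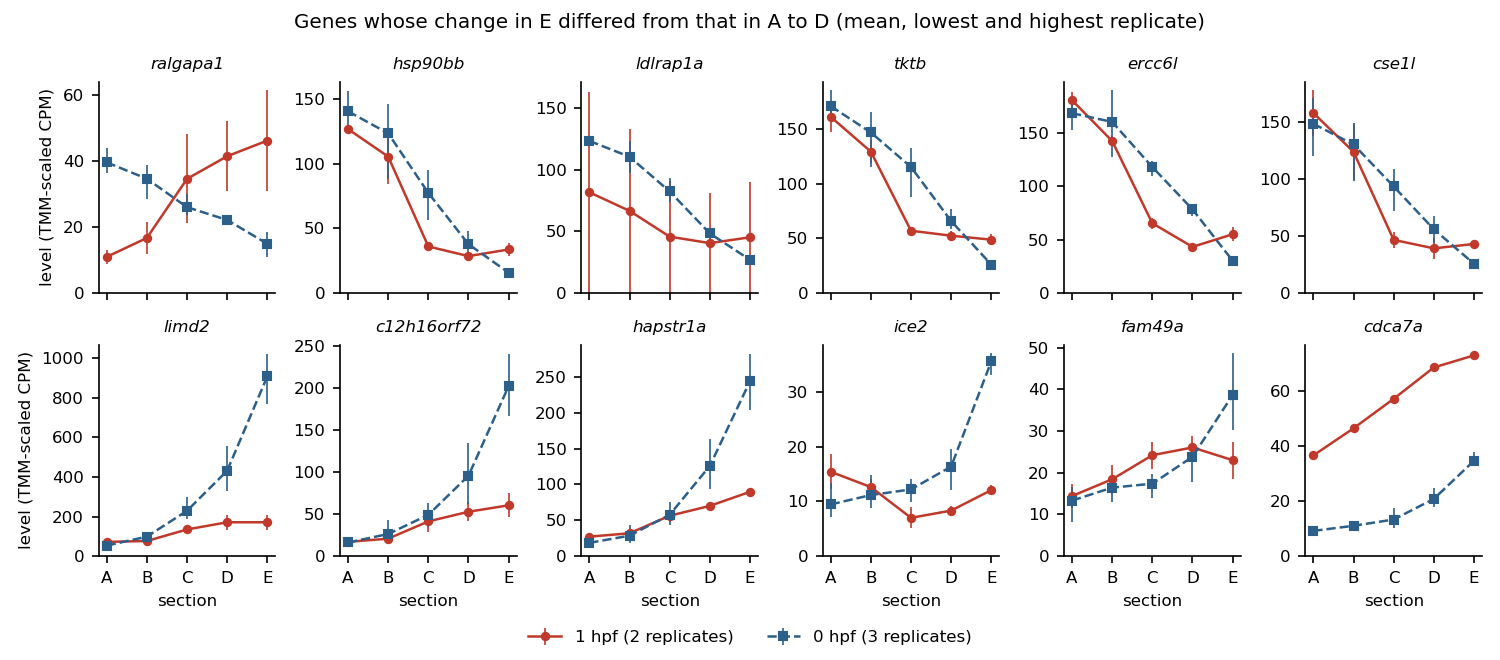
Level (TMM-scaled CPM, vertical) in sections A to E (horizontal) at 1 hpf (red, mean of 2 replicates) and 0 hpf (blue, mean of 3) for 12 genes whose change in E differed from that in A to D, with bars from the lowest to the highest replicate. In the upper row the 1 hpf line ends above the 0 hpf line in E, and in the lower row, apart from cdca7a, it ends below.

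The 60 genes with a more negative change in E were, by their medians, highest in E at 0 hpf. Their median levels from A to E were 25.3, 28.3, 38.6, 46.2 and 42.5 CPM at 1 hpf, and 19.1, 22.2, 31.3, 41.5 and 56.2 CPM at 0 hpf. Choosing genes by a more negative change in E favours a high level in E at 0 hpf. In the 1 dpf and 3 dpf libraries, which this test did not use, 16.7% and 30% of them were higher in A than in E. Of all genes tested, 48.3% and 47.5% were. The median change of the 60 genes was -0.74 in E, and 0.35, 0.28, 0.31 and 0.09 in A to D. In the comparison of E by itself, which shares its libraries with this test, 10 of the 60 passed. The LIM domain gene limd2 had the largest fall among them. It had 190 and 124 CPM in E at 1 hpf, against 875, 716 and 967 CPM at 0 hpf (-2.44, SE 0.23, adjusted p = 0.000361). From A to E its mean level was 71.8, 76.3, 135, 171 and 171 CPM at 1 hpf, and 53.0, 98.3, 229, 431 and 909 CPM at 0 hpf. The steep vegetal rise of limd2 at 0 hpf was thus nearly flat between D and E at 1 hpf. Its change in E differed from that in A to D by -1.95 (SE 0.26, adjusted p = 0.00122). Without the replicate terms this difference did not pass (adjusted p = 0.111).

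Both trout genes of the HAPSTR1 family, stress-response proteins that in human cells bind the ubiquitin ligase HUWE1, fell in E. The gene c12h16orf72 had 42.1 and 69.1 CPM in E at 1 hpf, against 224, 186 and 157 CPM at 0 hpf (-1.76, SE 0.25, adjusted p = 0.00812), and hapstr1a had 86.6 and 78.4 CPM at 1 hpf, against 264, 229 and 192 CPM at 0 hpf (-1.47, SE 0.29, adjusted p = 0.0421). In section A their own changes were 0.10 and 0.57 and did not pass. Against the neighbouring section D alone, the difference in change did not pass for either gene, as given below. Within E the call of hapstr1a held only without 0 hpf replicate 2 among the fits that left out a library, and that of c12h16orf72 was lost without 1 hpf replicate 1. The differences from A to D were -1.43 (SE 0.24, adjusted p = 0.00774) and -1.41 (SE 0.24, adjusted p = 0.00875). The little elongation complex gene ice2 had 10.2 and 12 CPM in E at 1 hpf, against 34.3, 34.5 and 31.3 CPM at 0 hpf (difference -1.38, SE 0.25, adjusted p = 0.011). The Rac-binding gene fam49a had 25.2 and 17.2 CPM at 1 hpf, against 34.6, 28.1 and 46.1 CPM at 0 hpf (difference -0.97, SE 0.16, adjusted p = 0.00774), and did not pass in E by itself. The gene cdca7a, a partner of the chromatin remodeller HELLS, differed in another way. It was higher at 1 hpf in E (1.05, SE 0.18, adjusted p = 0.022), but by less than in A, B, C and D, where its changes were 2.00, 2.06, 2.04 and 1.75. Its call in E held in only 1 of the 5 fits that left out a library, the one without 0 hpf replicate 2. The differences of c12h16orf72, hapstr1a, ice2, fam49a and cdca7a from A to D did not pass without 0 hpf replicate 3 (adjusted p from 0.152 to 0.191) or without 1 hpf replicate 3 (0.241 to 0.321), and that of cdca7a did not without 1 hpf replicate 1 (0.0632).

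Against the neighbouring section D alone, 54 of 20810 genes (0.259%) had a more positive change in E and 1 gene (0.00481%) a more negative one. None of the 174 genes called in E was among them. The count of 54 became 1 without 1 hpf replicate 3, 49 without 1 hpf replicate 1, 1 without 0 hpf replicate 1, 1 without 0 hpf replicate 2 and 0 without 0 hpf replicate 3, and the count of 1 became 0 without any of the 5. The count of 54 became 1 without the replicate terms and 140 when scaled by library size alone. Among the genes named above, ercc6l (1.72, adjusted p = 0.00383), cse1l (1.32, adjusted p = 0.0133), tktb (1.26, adjusted p = 0.0331) and hsp90bb (1.5, adjusted p = 0.0334) passed. For limd2 (-1.12, adjusted p = 0.174), c12h16orf72 (-0.94, adjusted p = 0.228) and hapstr1a (-0.63, adjusted p = 0.436) the difference from D did not pass, and section D had its own called fall of limd2 (-1.32, adjusted p = 0.0262).

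The trout genome holds many duplicate pairs, and 1 pair split between the directions. Of the 2 gid4 genes, which encode a substrate receptor of the CTLH ubiquitin ligase, LOC110511068 had 139 and 122 CPM in E at 1 hpf, against 65.9, 44.3 and 68.7 CPM at 0 hpf (1.13, SE 0.19, adjusted p = 0.0229). The other copy, LOC110516169, had 47.7 and 53.4 CPM at 1 hpf, against 99.4, 102 and 110 CPM at 0 hpf (-1.04, SE 0.16, adjusted p = 0.0147). Both calls were lost without either 1 hpf replicate, that of LOC110511068 also without 0 hpf replicate 1 and that of LOC110516169 also without 0 hpf replicate 3, and both with the 5 libraries alone. The copies thus changed order between the stages, and their changes in A to D were 1.16, 1.17, 1.21 and 1.02 for the one and -0.99, -0.84, -0.93 and -0.98 for the other. Reads that match both copies may have been divided or discarded in counting, so the level of a single copy is uncertain to that extent.

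Called genes were looked at for called neighbours in the RefSeq annotation of assembly USDA_OmykA_1.1, and their share with one was near that of all genes. Of 170 called genes with a place there, 17 (10%) had another called gene within 5 tested genes on either side, beside 7.91% of all placed genes. Such neighbours included the fucosyltransferase gene fut9a (2.56, SE 0.35), LOC110486735 (1.67, SE 0.28) and pdxdc1 (1.04, SE 0.18), which all rose. The gene gps2 and the nearby gene LOC110500676, without a name (-3.25, SE 0.57), both fell. Of these neighbours, fut9a did not pass without 1 hpf replicate 1, LOC110486735 without either 1 hpf replicate or 0 hpf replicate 3, and pdxdc1 and LOC110500676 passed only without 0 hpf replicate 2 among the fits that left out a library. Neighbours also went apart, as limd2 fell and hsd3b7 was higher at 1 hpf. Where neighbours overlap, their reads may not be separable, which was not tested.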

How the data were processed

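Read counts per gene were deposited by the authors as whole numbers. Per the submitters' processing notes, reads passed through fastp 0.23.4, STAR 2.7.11 and HTSeq 2.0.4, with DESeq2 also listed. The build and the strandedness were not given in the sources used here. Of 23471 features, 23470 matched RefSeq names of assembly USDA_OmykA_1.1, and 7310 without a trout symbol are called by the zebrafish ortholog.

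Counts were tested with edgeR 4.0.16 (R 4.3.3) using its quasi-likelihood F-test after TMM scaling, filterByExpr (at least 10 counts, judged on the 5 libraries) and Benjamini-Hochberg adjustment at 0.05. The fit held the 11 section E libraries of 4 stages, which share 1 estimate of spread, of the 12 that the labels name; 1 hpf replicate 2 was not analysed here. Differences from other sections came from 1 fit of the 25 libraries of 0 and 1 hpf with replicate terms. The procedure was tested on simulated data. DESeq2 1.42.0, other scalings, no filter, a replicate block and fits leaving out each library were tried. A fold against 0 counts is a bound from 3 counts, and ratios to 1 to 3 counts carry 95% exact intervals. Genes were named by rule. It took the 12 largest called changes per direction with a symbol, at least 5 CPM and no overlap of 1 hpf and 0 hpf libraries. It also took the 2 smallest adjusted p per gene list and direction, 12 vegetal and germ plasm genes with copies, and the 10 highest levels. Added to these were the 6 smallest adjusted p per direction of difference from other sections, and copies called in opposite directions. The comparison and the gene lists were chosen with earlier results of these data known. Of the genes named by rule, 1 is not reported here. Other deposited tables were not used here.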

Additional observations from a re-analysis of the deposited data

Results flagged for a closer look

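For 15 of the named genes the change in section E, 1 hpf over 0 hpf, differed from the mean change of sections A to D by edgeR's test of that difference. It was more positive in E for ralgapa1 (2.07), hsp90bb (1.61), ldlrap1a (1.36), sdha (1.36), tktb (1.34), ercc6l (1.33) and cse1l (1.18), on the log2 scale. It was more negative in E for limd2 (-1.95), c12h16orf72 (-1.43), hapstr1a (-1.41), ice2 (-1.38), vamp8 (-0.99), fam49a (-0.97), cdca7a (-0.90) and prkcsh (-0.68). Without the replicate terms, 10 of the 12 with the smallest adjusted p did not pass. The values of 1 hpf replicate 3 bear on most of the 12 with the smallest adjusted p, since 10 of them did not pass without it, and 5 did not without 0 hpf replicate 3.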

How the results depend on the processing

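All 174 calls in E kept their direction under each alternative fit, which the lack of overlap between the groups nearly fixes. The calls that also passed numbered 172 with median-ratio size factors, 167 with library sizes alone, 167 without the filter, 174 with DESeq2, 155 with a replicate block and 35 with the 5 libraries alone. The 5 libraries alone called 18 higher and 17 lower genes, and DESeq2 340 and 262. Leaving out 1 library gave 31 to 367 higher and 8 to 217 lower genes. Where that left 1 library at 1 hpf, it was assumed to vary like the other groups. The replicate block called 145 higher and 106 lower genes; same-numbered libraries of 1 hpf and 0 hpf had correlations of deviations of -0.11 and -0.12, which share 1 source because the 1 hpf pair deviates in mirror image. With 2 libraries at 1 hpf such values cannot decide whether the stages are paired, and the labels name no pairing. Of 10 genes present in 1 replicate alone at 1 hpf, 9 had 1 dpf and 3 dpf replicates 1 and 2 nearer to 1 hpf replicate 1. For the same 9 genes, replicate 3 of both later stages lay nearer to 1 hpf replicate 3. What the replicate numbers stand for was not tested. For the difference from A to D, leaving out 1 replicate gave 6 to 246 and 2 to 142 genes, and no replicate terms gave 5 and 0. For the difference from D these were 0 to 49 and 0, no replicate terms gave 1 and 0, and library sizes alone gave 140 higher. The cause of these shifts was not tested, beyond the fewer libraries in a fit. With 2 libraries at 1 hpf, the smallest change called was 0.80 on the log2 scale among the higher genes and 0.98 among the lower.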

Other observations

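Some genes were present in section E of 1 replicate and absent from another of the same stage, which was looked for after seeing ldlrap1a. At 1 hpf, 10 of 20810 genes had no count in E of 1 replicate and at least 10 CPM in the other, and at 0 hpf 48 did. The gene ldlrap1a had 0 CPM in 1 hpf E replicate 1 and at most 0.242 CPM in its sections A to D, against 83.5 CPM in E of replicate 3 and 80.9 to 163 CPM in its other sections. For 9 of the 10 genes, E of 1 dpf and 3 dpf replicates 1 and 2 lay nearer to 1 hpf replicate 1, and that of replicates 3 nearer to 1 hpf replicate 3, over all 6 libraries. Of the 48 genes at 0 hpf, 23 were at 0 in replicate 2 only, and 25 were at 0 in replicate 1, 3 or both and highest in replicate 2. The purine synthesis genes ppat (LOC110524565) and paics (LOC110524564), with consecutive gene numbers, were both at 0 CPM in 0 hpf E replicate 2. In E of replicates 1 and 3, ppat had 24 and 30.4 CPM and paics 15.9 and 26.3 CPM. In sections A to D of replicate 2 they reached at most 0.757 and 0.86 CPM, so the absence was not limited to section E. The lysosomal phospholipase gene pla2g15 had 14.1 CPM in 0 hpf E replicate 2 and 0 CPM in replicates 1 and 3, with 28.7 and 36.7 CPM in E at 1 hpf.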
